A study of Oryza sativa with 6 samples.

Results

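Four-week-old rice leaves carrying a MIR171f overexpression transgene (OX) were compared with leaves of nontransgenic wild-type rice (WT) across every transcript in the authors' table. The 4 libraries of this comparison were those that the labels assign to OX, from the transgenic lines Ox_3 and Ox_5 with 1 library each, and the 2 labelled WT. They were 4 of the 6 libraries of the study, and the other 2, from CRISPR-Cas9 mutants of MIR171f (KO, both with line number 2), entered the fit and are given beside OX where they add to a result. All plants, transgenic or not, germinated for 3 days at 28 °C on MS medium and then grew with 1 plant per pot in a greenhouse, without any further treatment in the labels. The overexpression is labelled as whole-body, and its promoter is not given in the sources used here. Nothing in the labels ties a WT library to a plant of its own. A p-value therefore reflects the spread among these libraries, and that spread may be technical.

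MicroRNAs of the miR171 family pair with transcripts of Scarecrow-like proteins, a branch of the GRAS transcription factors, and guide their cleavage. In plants the pair is known for roles in meristem maintenance, shoot branching, the change from juvenile to adult growth, and chlorophyll synthesis. The families below are ordered by what their proteins do: GRAS regulators, carbon metabolism, specialised metabolism, other transcription factors and flowering genes, defence, hormones, nutrients, plastids, cell walls and protein turnover. Sequences of these rice transcripts were not used here.

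The table lists 7194 transcripts of 6535 genes, each chosen by the authors because it passed their limits on fold (2) and p in 1 or more of the 3 genotype comparisons, and 7034 of them had enough reads to test. Total reads per library, worked out from the deposited values, were between 28374212 and 33404887, of which the listed transcripts held 24.3% to 31.0%. Levels are CPM, the counts scaled to the authors' effective library totals, given for replicate 1 and then replicate 2, so that in OX the line Ox_3 comes before Ox_5. Log2 fold changes are given ± SE. A transcript is called when its edgeR adjusted p is below 0.05, and a call is steady when it was also made, in the same direction, under all 13 alternative settings, which leave out each library in turn or change the scaling, filter, fit or tool. In OX 1762 transcripts were called higher and 1337 lower, which is 25.0% and 19.0% of those tested, with a median log2 fold change of 0.28. Without Ox_3 there were 1131 and 882 such calls, and without Ox_5 1097 and 930. Steady calls made up 13.6% (959 higher) and 10.6% (746 lower). These shares of a table selected for change are the background for each family below, and the counts within families are descriptions with no test of their own. With plain library totals all log2 ratios shift by 0.37 and 2342 higher and 968 lower calls result, and with DESeq2 size factors they shift by -0.17, giving 1506 and 1531.

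**Figure D1:**
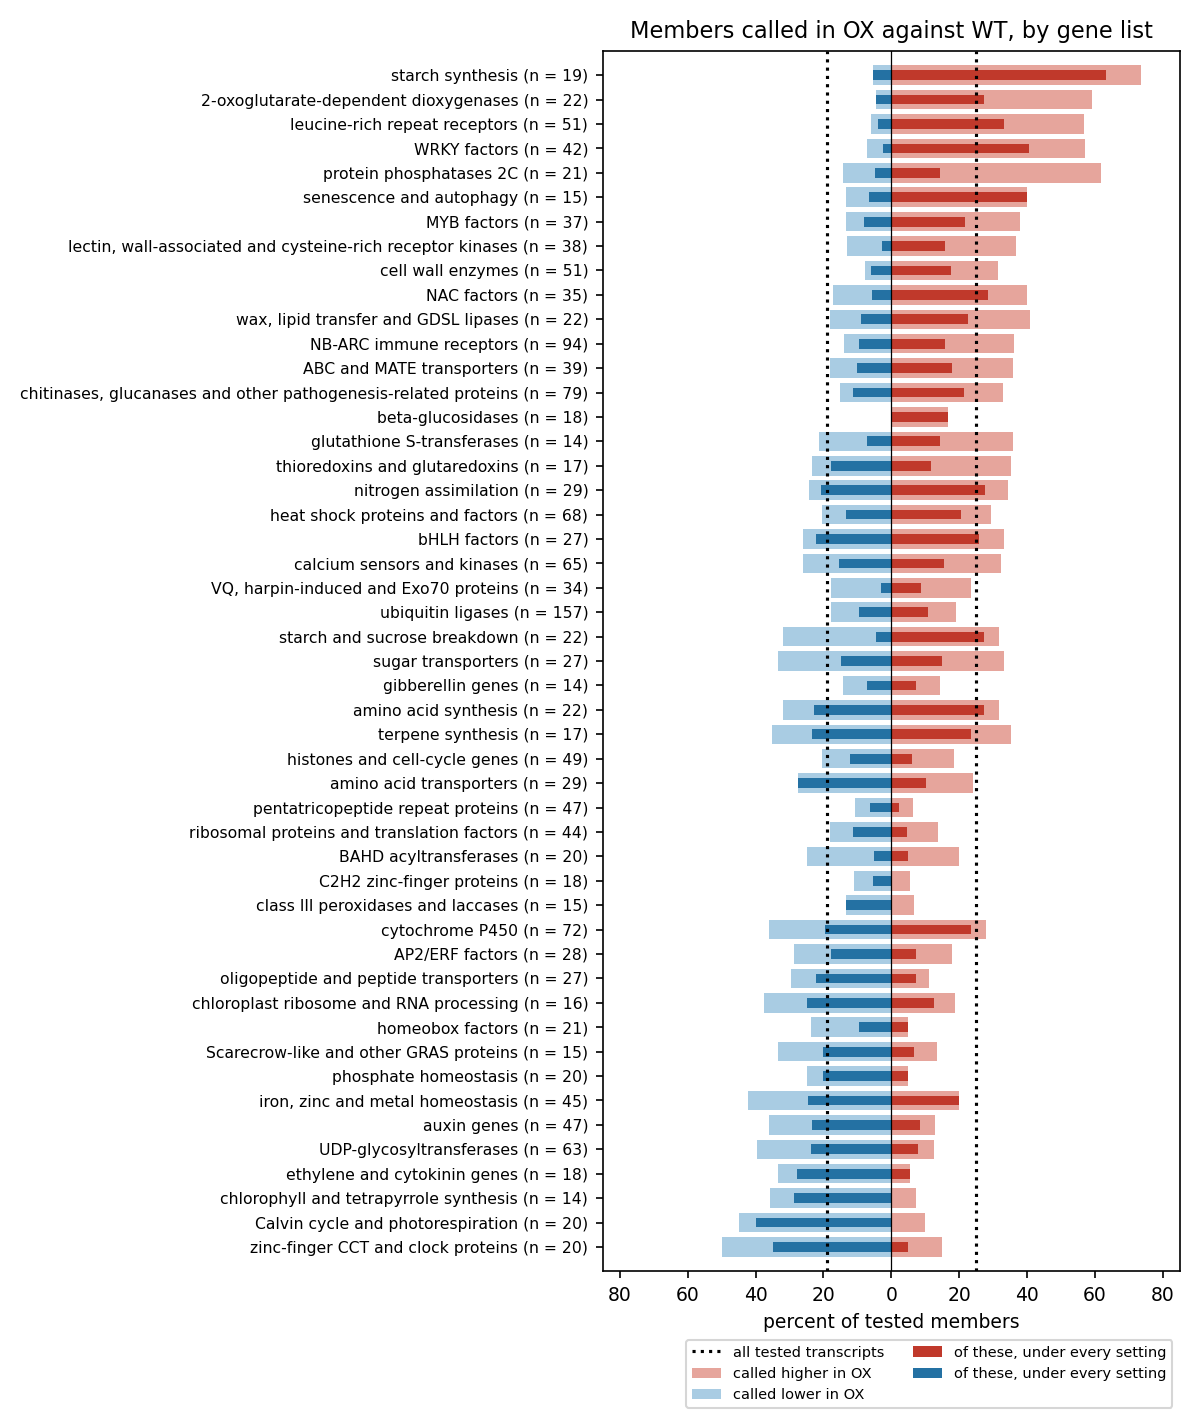
Share of the tested transcripts of each family with at least 14 tested members called higher (right) or lower (left) in OX against WT, in percent, with the steady calls as the narrow dark bars and the shares over all tested transcripts, 25.0% higher and 19.0% lower, as dotted lines. Starch synthesis reaches farthest to the right, with 14 of 19 members called higher, and the zinc-finger CCT and clock proteins farthest to the left, with 10 of 20 called lower.

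The leaf label was checked against marker genes. The 41 listed transcripts of the photosynthetic apparatus, which marks green leaf cells, were abundant and summed to 150495 and 157734 CPM in WT and to 63962 and 65902 CPM in OX. KO stood between, at 96460 and 94135 CPM. In bulk leaves, fewer green cells and less of these RNAs per cell cannot be told apart. The list of markers for dividing cells gave 5 higher (1 steadily) and 7 lower (6 steadily) of 31 (4 and 9 with DESeq2 size factors). Its summed level was 1488 and 1596 CPM in WT, 831 and 847 CPM in OX and 602 and 595 CPM in KO. The median log2 fold change of its members was 0.28, so the lower sum in OX was not shared by most members. Lists for meristem, secondary wall, seed and pollen had members at low levels. The secondary wall list gave 2 higher (2 steadily) and 0 lower (0 steadily) of 5, and its summed level was 9.37 and 10.7 CPM in WT, 21.6 and 22.5 CPM in OX and 35.3 and 32.6 CPM in KO. Its rises were the COBRA-like genes Os03g0301200 (7.78 and 8.88 CPM in WT and 17.2 and 17.5 CPM in OX; 1.06 ± 0.12) and Os03g0754500 (0.31 and 0.168 CPM in WT and 2.87 and 3.33 CPM in OX; 3.67 ± 0.45), each with the log2 fold change ± SE. The seed list gave 1 higher (1 steadily) and 0 lower (0 steadily) of 3, the rise being a cupin gene, Os03g0197300 (1.20 and 1.89 CPM in WT and 9.73 and 9.09 CPM in OX; 2.61 ± 0.27), with a summed level of 3.33 and 4.69 CPM in WT, 12.1 and 12.9 CPM in OX and 16.3 and 21.7 CPM in KO. The most abundant uncalled members were a YABBY-like gene (9.80 and 11.4 CPM in WT and 4.32 and 1.72 CPM in OX), a laccase (0.31 and 0.712 CPM in WT and 0.977 and 1.23 CPM in OX), a glutelin (1.43 and 2.30 CPM in WT and 2.08 and 3.74 CPM in OX) and a pollen-protein-like gene (1.24 and 1.38 CPM in WT and 6.80 and 0.877 CPM in OX). The root list held 0 transcripts, and Os01t0575000-03, described as similar to a Root hair defective 3 protein, was not counted in it. A root transcript that differed little between the genotypes would not be in the table. Whether cell makeup had a part in the results was not tested.

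Among the 15 listed Scarecrow-like and other GRAS transcripts, the family that holds the known targets of miR171, 2 were called higher (1 steadily) and 5 lower (3 steadily), with a median log2 fold change of -0.71. The steady falls were Os02g0662700 (66.6 and 60.6 CPM in WT and 31.1 and 34.5 CPM in OX), Os06g0105350 (22.1 and 24.9 CPM in WT and 5.48 and 6.93 CPM in OX) and transcript 02 of Os01g0842200 (44.3 and 36.7 CPM in WT and 20.4 and 22.7 CPM in OX). The change of Os01t0842200-02 was -0.91 ± 0.12 on the log2 scale (edgeR adjusted p = 0.0062). In each of them both OX libraries lay below both WT libraries. The more abundant transcript 01 of Os01g0842200, similar to Scarecrow-like 9, stood at 241 and 259 CPM in WT, 198 and 198 in OX, 613 and 607 in KO, a call that was not steady. Its ratio to WT changes sign with plain library totals. The 1 steady rise was Os07g0545800, described as a chitin-inducible gibberellin-responsive protein, at 63.6 and 60.8 CPM in WT, 171 and 169 in OX, 366 and 359.8 in KO. Os07g0545800 gave a log2 fold change of 1.45 ± 0.05 (edgeR adjusted p = 9e-05). Both KO libraries were higher than both OX libraries here. The most abundant uncalled member, Os01g0881500, stood at 98.8 and 42.2 CPM in WT and 48.3 and 37.8 CPM in OX, with WT 1 above the 3 other libraries. The other uncalled members had log2 fold changes from -2.14 to 0.60, and the remaining calls that were not steady were those of Os03g0103400 (1.44) and Os10g0551200 (-0.91). With plain library totals the family gave 4 and 3 calls, higher and lower.

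Transcripts for starch synthesis had the highest share of rises among the families plotted. Plastids make starch from glucose phosphate: a translocator imports it, ADP-glucose pyrophosphorylase activates it, starch synthases lengthen the chains, branching enzymes add side chains and isoamylases trim them. Of 19 tested members 14 were called higher (12 steadily) and 1 lower (1 steadily), with a median log2 fold change of 1.58. Every member is given here, a choice made after the values had been seen. The activating enzyme led: the ADP-glucose pyrophosphorylase Os05g0580000 stood at 3.56 and 2.60 CPM in WT, 404 and 399.5 in OX, 15.8 and 17.3 in KO, so that KO exceeded WT but lay far below OX. The other large-subunit gene, Os01g0633100, similar to the maize SH2 subunit, stood at 12.9 and 12.7 CPM in WT and 19.4 and 20.5 CPM in OX (log2 fold change 0.64 ± 0.09, not steady), and a small-subunit transcript, Os08t0345800-03, was below 1 CPM in all 4 libraries and not called.

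The glucose 6-phosphate translocators rose with it. Os07g0523400 (chr7:20277401-20279936) stood at 3.60 and 3.98 CPM in WT and 60.3 and 68.8 CPM in OX. For Os07g0523400 the log2 fold change was 4.09 ± 0.14 (edgeR adjusted p = 9.2e-05). Its neighbours Os07g0523600 (4.10 and 5.07 CPM in WT and 72.9 and 68.7 CPM in OX) and Os07g0523965 (4.26 and 5.24 CPM in WT and 74.5 and 70.8 CPM in OX) gave log2 fold changes of 3.95 and 3.94. These 3 adjacent entries with near-equal levels may share reads, so they are best read as 1 locus. Os08g0187800, another translocator, on another chromosome, rose less (43.5 and 40.1 CPM in WT and 77.3 and 73.8 CPM in OX). The change of Os08g0187800 was 0.85 ± 0.07 on the log2 scale (edgeR adjusted p = 0.0013).

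Chain-building and trimming enzymes were raised at lower folds. The most abundant member, the granule-bound starch synthase Ib Os07g0412100, which makes amylose in leaves, stood at 1935 and 1841 CPM in WT, 2715 and 2555 in OX, 1206 and 1199 in KO. Os07g0412100 gave a log2 fold change of 0.48 ± 0.05 (edgeR adjusted p = 0.0023). Starch synthase I, Os06g0160700, went the same way (148 and 136 CPM in WT and 292 and 278 CPM in OX), as did the starch synthase V gene Os02g0807100 (10.1 and 10.4 CPM in WT and 28.8 and 27.9 CPM in OX; log2 fold change 1.47 ± 0.10). For Os06g0160700 the log2 fold change was 1.00 ± 0.06 (edgeR adjusted p = 0.00045). For both granule-bound starch synthase and starch synthase I, OX was above WT while KO was below WT, without overlap of any libraries. Branching enzyme I, Os06g0726400, was called for its main transcript (59.6 and 61.8 CPM in WT and 282 and 212 CPM in OX; log2 fold change 2.02 ± 0.25), but not steadily, and transcripts 02 and 04 of the gene were uncalled at 2.19 ± 0.64 and 1.58 ± 0.35. Debranching enzymes rose for Os09g0469400 (16 and 16 CPM in WT and 97.2 and 93.6 CPM in OX), Os04g0164900 (3.30 ± 0.17), Os05g0393700 (1.95 ± 0.21) and Os08g0520900 (1.45 ± 0.16), each given as log2 fold change ± SE. The change of Os09g0469400 was 2.57 ± 0.07 on the log2 scale (edgeR adjusted p = 6.1e-05). The 1 fall was Os03g0686900, a protein with an isoamylase N-terminal domain (21.5 and 23.5 CPM in WT and 10.1 and 11.1 CPM in OX). Os03g0686900 gave a log2 fold change of -1.08 ± 0.11 (edgeR adjusted p = 0.0028). The starch synthase IV transcript Os01t0720600-03 stood at 5.42 and 23.7 CPM in WT and 5.80 and 9.82 CPM in OX, uncalled, with WT 2 apart from the 3 other libraries.

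**Figure D2:**
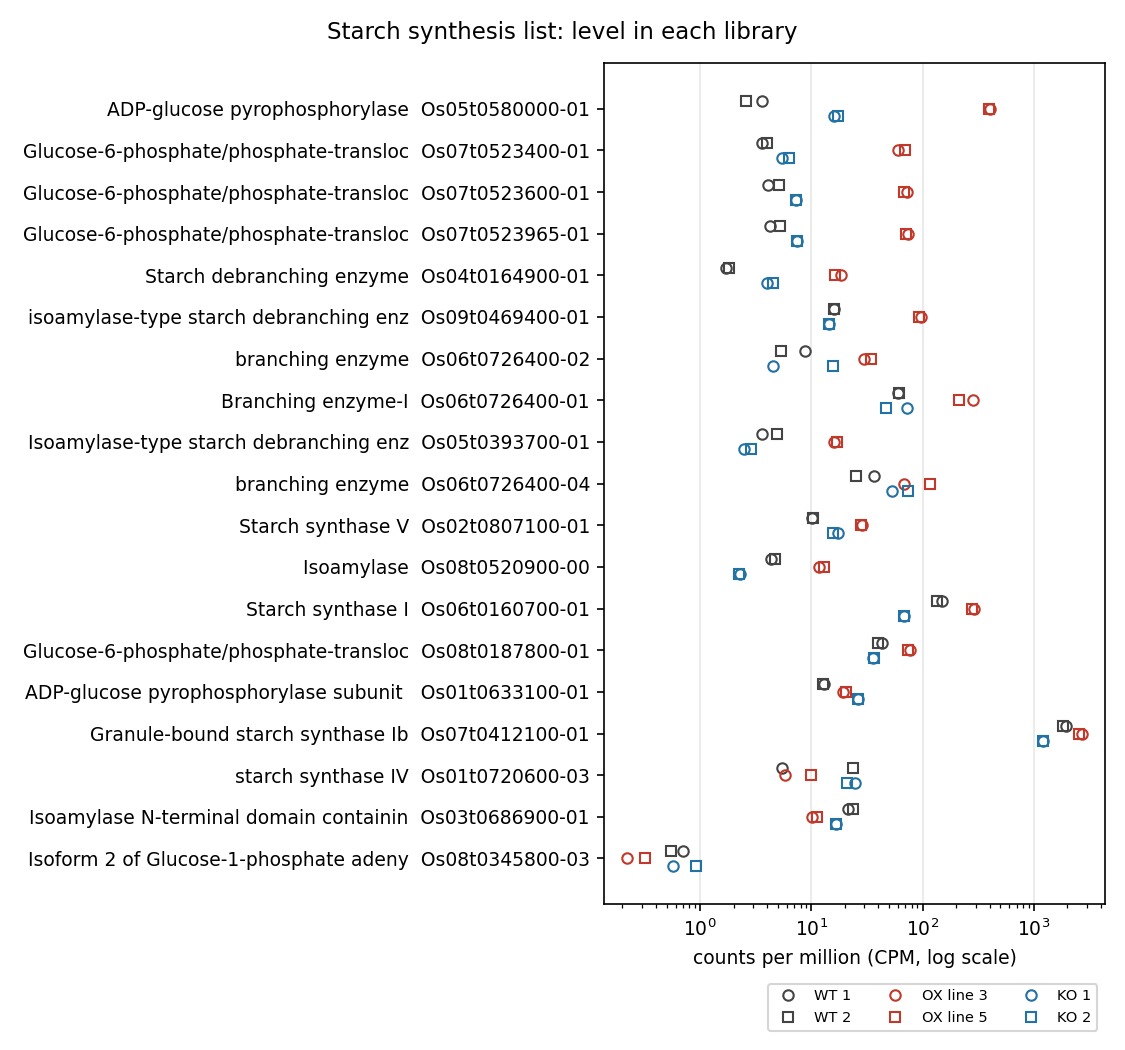
CPM on a log scale for starch synthesis transcripts in each library, with circles for replicate 1 and squares for replicate 2 of WT, OX and KO. OX lies above WT for the ADP-glucose pyrophosphorylase, the translocators, the starch synthases I and V, the granule-bound starch synthase and the isoamylases, and below it for Os03g0686900.

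Enzymes that degrade starch and sucrose were divided. Of 22 tested, 7 were called higher (6 steadily) and 7 lower (1 steadily), with a median log2 fold change of -0.36. Alpha-glucan phosphorylase Os03g0758100, which releases glucose 1-phosphate from glucan chains, stood at 12.9 and 10.1 CPM in WT, 169 and 151 in OX, 19.9 and 18.6 in KO. For Os03g0758100 the log2 fold change was 3.80 ± 0.15 (edgeR adjusted p = 0.00014). Both OX libraries were far above the other 4. The beta-amylases Os03g0141200 (125 and 128 CPM in WT, 313 and 317 in OX, 369.9 and 357 in KO; log2 fold change 1.31 ± 0.04) and Os10g0465700 (91.9 and 105 CPM in WT, 194 and 205 in OX, 137 and 140.0 in KO; 1.02 ± 0.08) release maltose, and both rose. For the former KO was above OX. The 4-alpha-glucanotransferase Os07g0662900, which rearranges glucan chains after maltose is formed, is not among these 22. It stood at 179 and 174 CPM in WT, 584 and 571 in OX, 185 and 176 in KO. The change of Os07g0662900 was 1.71 ± 0.05 on the log2 scale (edgeR adjusted p = 6.1e-05). Transcript 01 of the neutral invertase Os04g0432400, which splits sucrose, fell (67.5 and 69.6 CPM in WT and 37.3 and 42 CPM in OX). Transcript 02 of that gene, also in the list, was not a steady fall. Sucrose synthase 2, Os06t0194900-03, was uncalled at 33 and 13.7 CPM in WT and 16.1 and 15 CPM in OX, with WT 1 above the rest. Os04t0432400-01 gave a log2 fold change of -0.79 ± 0.08 (edgeR adjusted p = 0.003). With plain library totals the breakdown list gave 9 and 2 calls and its median became 0.0032.

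Sugar carriers also moved in both directions, with 9 higher (4 steadily) and 9 lower (4 steadily) of 27. SWEET proteins (described as MtN3) let sugars leave cells: Os01g0700100 (26.6 and 30.1 CPM in WT and 68 and 68.8 CPM in OX; log2 fold change 1.27 ± 0.09) and Os12g0476200 (31.5 and 29.7 CPM in WT and 60.9 and 69.4 CPM in OX; 1.09 ± 0.09) rose, whereas Os01t0881300-02 (100.2 and 104 CPM in WT and 51.8 and 49.7 CPM in OX; -1.01 ± 0.06) and Os05g0426000 (55.3 and 54.5 CPM in WT and 29.5 and 29.9 CPM in OX; -0.89 ± 0.07) fell. The sucrose transporter Os03g0170900, of the family that loads sucrose across membranes, stood at 36.3 and 40.5 CPM in WT, 12.9 and 15.2 in OX, 68.4 and 63.1 in KO. For Os03t0170900-01 the log2 fold change was -1.45 ± 0.12 (edgeR adjusted p = 0.0011). OX was the lowest and KO the highest group. The sugar and inositol carrier Os10g0579200 rose (26.7 and 22.9 CPM in WT and 49.8 and 49.5 CPM in OX; 1.00 ± 0.10), and the tonoplast monosaccharide transporter Os02g0229400, the most abundant uncalled member, stood at 322 and 279.5 CPM in WT and 398 and 400.1 CPM in OX. The split of calls was 6 and 11 with DESeq2 size factors and 12 and 7 with plain totals.

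Specialised metabolism was represented by several enzyme families. Terpene transcripts gave 6 higher (4 steadily) and 6 lower (4 steadily) of 17. The sesquiterpene synthase Os08g0167800 stood at 11.5 and 11.9 CPM in WT, 1089 and 1041 in OX, 40.4 and 40.7 in KO. A pair of terpene synthase genes on chromosome 3, Os03g0348200 (chr3:13063312-13070842) and Os03g0347900 (chr3:13035374-13046115), also rose. The former stood at 47.6 and 44.9 CPM in WT, 315 and 312 in OX, 50.7 and 49.8 in KO, and the latter at 13.3 and 13.5 CPM in WT, 31 and 30.8 in OX, 25.4 and 21.3 in KO. For Os03g0348200 and Os03t0347900-01 the log2 fold changes were 2.76 ± 0.05 and 1.20 ± 0.11, with edgeR adjusted p = 3.8e-05 and 0.0021. By contrast the plastid precursor enzyme 1-deoxyxylulose 5-phosphate synthase, Os05g0408900, which feeds isoprenoids and pigments, fell for transcripts 04 (323 and 336 CPM in WT and 136 and 170.3 CPM in OX; log2 fold change -1.10 ± 0.11) and 03 (205 and 222 CPM in WT and 99.1 and 83.3 CPM in OX; -1.23 ± 0.10). Ent-kaurene oxidase Os06g0570100 of gibberellin synthesis fell as well (23 and 21.2 CPM in WT and 11.6 and 11.5 CPM in OX; -0.94 ± 0.10).

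Carboxyl methyltransferases of the SABATH family make volatile methyl esters of plant acids. The table held 4, and 2 were called higher (2 steadily) and 1 lower (1 steadily), with a median log2 fold change of 0.12. Beside Os02g0719600 (0.387 and 0.209 CPM in WT, 22.2 and 23.5 in OX, 0.153 and 0.293 in KO), the more abundant Os05g0102000 stood at 46.8 and 54.1 CPM in WT, 172 and 180.4 in OX, 24.7 and 26.9 in KO and Os11g0256900 at 13.1 and 14 CPM in WT, 4.35 and 4.12 in OX, 24.7 and 23.5 in KO. For Os05g0102000 and Os11g0256900 the log2 fold changes were 1.80 ± 0.09 and -1.68 ± 0.11, with edgeR adjusted p = 0.00028 and 0.00062. For the last, OX lay below and KO above WT. Lipoxygenases, which oxygenate fatty acids, gave 8 higher (7 steadily) and 1 lower (0 steadily) of 12 (8 and 0 with plain totals). Transcript 02 of Os12g0559200 stood at 42.9 and 39.3 CPM in WT, 477 and 475 in OX, 61.6 and 44.8 in KO, a level change in the same direction as its transcript 01 (68.9 and 93.3 CPM in WT, 2242 and 2352 in OX, 124 and 140.3 in KO). Os05g0304600 was higher in OX and higher still in KO (85.1 and 89.8 CPM in WT, 167 and 184 in OX, 282 and 277 in KO). For Os05g0304600 the log2 fold change was 1.01 ± 0.06 (edgeR adjusted p = 0.00052). In the opposite direction, Os02t0194700-02 stood at 134 and 208 CPM in WT and 36.2 and 8.42 CPM in OX and was not called, and its OX libraries were far apart. BAHD acyltransferases, which acylate alcohols and amines, gave 4 higher (1 steadily) and 5 lower (1 steadily) of 20 (5 and 3 with plain totals), led by Os12g0458100 (1.39 and 1.51 CPM in WT, 147 and 148 in OX, 2.84 and 3.40 in KO).

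The 2-oxoglutarate-dependent dioxygenases, a large family of hydroxylating enzymes, gave 13 higher (6 steadily) and 1 lower (1 steadily) of 22. The steady rises of highest level were Os10g0536400 (16.1 and 16.4 CPM in WT and 70.2 and 72.4 CPM in OX; log2 fold change 2.13 ± 0.07), Os01g0188100 (27.3 and 28.8 CPM in WT and 56.8 and 57.9 CPM in OX; 1.03 ± 0.10) and Os06g0178500 (17.8 and 17.8 CPM in WT and 40.4 and 39.2 CPM in OX; 1.16 ± 0.07). The 1 fall was Os04g0475600 (14.5 and 13.7 CPM in WT and 5.83 and 6.75 CPM in OX; -1.16 ± 0.13). Beta-glucosidases, which release sugar-bound compounds, gave 3 higher (3 steadily) and 0 lower (0 steadily) of 18, the most abundant being Os01g0897600 (41.9 and 45 CPM in WT and 107 and 106 CPM in OX; 1.29 ± 0.07).

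Cytochrome P450 transcripts, which encode oxidases of many pathways, were called in both directions, with 20 higher (17 steadily) and 26 lower (14 steadily) of 72. The CYP78A genes stood out among the falls. CYP78A proteins are known from several plants to affect organ growth. Os09g0528700 (chr9:20691369-20693116), similar to CYP78A9, stood at 163 and 172 CPM in WT, 18.9 and 21.3 in OX, 40.4 and 39.7 in KO. The change of Os09g0528700 was -3.06 ± 0.08 on the log2 scale (edgeR adjusted p = 6.1e-05). Os08g0547300 (chr8:27420633-27422835), similar to CYP78A1, stood at 105 and 113 CPM in WT, 15.7 and 14.3 in OX, 31.1 and 32.3 in KO. Os08g0547300 gave a log2 fold change of -2.86 ± 0.08 (edgeR adjusted p = 7.5e-05). In both, OX was lowest, KO next and WT highest, without overlap. The most abundant steady rises were Os09g0275400 (153 and 157 CPM in WT, 238 and 246 in OX, 65 and 63.8 in KO), Os02g0817900 (78 and 76 CPM in WT, 167 and 165 in OX, 80.8 and 87.1 in KO) and Os11g0635500 (87.2 and 83.3 CPM in WT, 132 and 129 in OX, 29.8 and 30.7 in KO), with log2 fold changes of 0.64, 1.11 and 0.61. UDP-glycosyltransferases, which attach sugars to hormones and phenolics, were called lower more often than higher: 8 higher (5 steadily) and 25 lower (15 steadily) of 63, with a median log2 fold change of -0.89. The most abundant falls were Os03g0757200 (226 and 246 CPM in WT and 91.2 and 104 CPM in OX), Os01g0179600 (179 and 207 CPM in WT and 86 and 94.6 CPM in OX) and Os02g0206700 (108 and 117 CPM in WT and 57 and 55.8 CPM in OX), while Os06g0289900 rose (4.49 and 6.41 CPM in WT and 34.8 and 35.7 CPM in OX). For Os06g0289900 the log2 fold change was 2.69 ± 0.23 (edgeR adjusted p = 0.0014). Glutathione S-transferases, which conjugate toxins, gave 5 higher (2 steadily) and 3 lower (1 steadily) of 14, and GST 23, Os09g0467200, stood at 194 and 199.9 CPM in WT, 535 and 571 in OX, 239.5 and 225 in KO. The change of Os09g0467200 was 1.49 ± 0.06 on the log2 scale (edgeR adjusted p = 0.00014). Under plain totals the splits were 26 and 17 for P450, 10 and 17 for glycosyltransferases and 7 and 2 for glutathione S-transferases.

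Transcription factor families differed in the direction of their calls. WRKY factors, known for control of defence and leaf ageing, gave 24 higher (17 steadily) and 3 lower (1 steadily) of 42, with a median log2 fold change of 1.07 against 0.28 over all tested transcripts. WRKY 45-like Os05g0322900 stood at 49.3 and 49.6 CPM in WT, 158 and 185 in OX, 164 and 167 in KO. Os05t0322900-01 gave a log2 fold change of 1.80 ± 0.09 (edgeR adjusted p = 0.00022). WRKY 74, Os09g0334500, stood at 57.5 and 61.5 CPM in WT, 103 and 102 in OX, 174 and 174 in KO, and WRKY 48-like Os01g0821600 at 20.6 and 20.9 CPM in WT, 46.3 and 49.9 in OX, 28.1 and 28.7 in KO. For Os09g0334500 and Os01g0821600 the log2 fold changes were 0.79 ± 0.05 and 1.22 ± 0.08, with edgeR adjusted p = 0.00067 and 0.00054. WT was the lowest group for all of them, and KO overlapped OX for the first, exceeded it for the second and lay below it for the third. The 1 steady fall was Os05g0129800 (21.1 and 20.8 CPM in WT and 10.6 and 8.24 CPM in OX; log2 fold change -1.15 ± 0.15), and the WRKY13 transcript Os01t0750100-03 was uncalled at 18.5 and 34.4 CPM in WT and 14.9 and 21.5 CPM in OX.

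NAC factors, known in stress responses and senescence, gave 14 higher (10 steadily) and 6 lower (2 steadily) of 35 (18 and 4 with plain totals). OsNAC6-like Os03g0815100, a stress-responsive member, stood at 34 and 39.8 CPM in WT, 113 and 116 in OX, 328 and 338 in KO. The change of Os03g0815100 was 1.63 ± 0.08 on the log2 scale (edgeR adjusted p = 0.00028). KO was highest of the groups. The more abundant Os05t0426200-02 (143 and 133 CPM in WT and 228 and 222 CPM in OX) and Os08g0157900 (93.4 and 90.9 CPM in WT and 176 and 173 CPM in OX) rose by log2 fold changes of 0.71 and 0.92. Os08g0200600, similar to ANAC021/022, went the other way at 43.1 and 45.6 CPM in WT, 2.93 and 3.45 in OX, 26.3 and 26.4 in KO. Os08t0200600-01 gave a log2 fold change of -3.79 ± 0.12 (edgeR adjusted p = 8.8e-05). MYB factors gave 14 higher (8 steadily) and 5 lower (3 steadily) of 37, with rises of Os07g0484700 (16.2 and 17.7 CPM in WT, 48.6 and 48.1 in OX, 94.4 and 98.4 in KO) and Os01t0975300-01 (7.67 and 7.04 CPM in WT, 38.3 and 37.6 in OX, 44.8 and 45.3 in KO) and a fall of the homeodomain-related Os07g0119300 (149 and 155 CPM in WT, 56.5 and 50.4 in OX, 60.9 and 56.7 in KO). For Os07g0119300 the log2 fold change was -1.51 ± 0.08 (edgeR adjusted p = 0.0003). For each of these MYB genes OX and KO were displaced from WT on the same side.

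The bHLH factors gave 9 higher (7 steadily) and 7 lower (6 steadily) of 27. Os01g0108400 stood at 38.8 and 40.5 CPM in WT, 152 and 144 in OX, 36.2 and 39.5 in KO, with KO level with WT. The change of Os01g0108400 was 1.90 ± 0.07 on the log2 scale (edgeR adjusted p = 0.00014). The most abundant member, Os03g0782500, fell (422 and 411 CPM in WT, 160.4 and 159.9 in OX, 308 and 322 in KO), and so did Os01g0924400, described as auxin-induced (171 and 162 CPM in WT, 71.4 and 78.4 in OX, 89.4 and 86.2 in KO; log2 fold change -1.15 ± 0.07). Os03g0782500 gave a log2 fold change of -1.38 ± 0.04 (edgeR adjusted p = 9e-05). AP2/ERF factors, which include ethylene-response and dehydration-response regulators, gave 5 higher (2 steadily) and 8 lower (5 steadily) of 28. The most abundant, Os05g0121600, whose description names starch biosynthesis, stood at 371 and 366 CPM in WT, 165 and 168 in OX, 283 and 281 in KO. For Os05g0121600 the log2 fold change was -1.15 ± 0.04 (edgeR adjusted p = 9.8e-05). Its 2 OX libraries were the lowest of all 6. Os03g0183300 fell likewise (173 and 188 CPM in WT and 76 and 85.1 CPM in OX; -1.16 ± 0.09), while the dehydration-response factor Os02g0676800 rose (1.97 and 1.17 CPM in WT, 7.43 and 7.92 in OX, 22.8 and 24.1 in KO; 2.28 ± 0.25). The bZIP factors gave 4 higher (3 steadily) and 5 lower (2 steadily) of 13, among them the liguleless2-like Os01g0859500, from a family known in maize for the blade and sheath boundary (3.29 and 4.27 CPM in WT, 0.567 and 0.526 in OX, 4.26 and 4.02 in KO; -2.78 ± 0.26). Homeobox factors gave 1 higher (1 steadily) and 5 lower (2 steadily) of 21, and the HOX26 gene Os02g0149900 stood at 2.32 and 2.39 CPM in WT, 0.063 and 0.146 in OX, 0.805 and 1.21 in KO. The change of Os02g0149900 was -4.42 ± 0.48 on the log2 scale (edgeR adjusted p = 0.0034). With plain totals the split was 7 and 6 for AP2/ERF factors. C2H2 zinc-finger proteins gave 1 higher (0 steadily) and 2 lower (1 steadily) of 18, with 1 and 4 calls under DESeq2 size factors and 2 and 1 under plain totals.

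Genes of the day-length and flowering pathways were called lower more often than higher. CONSTANS-like and other B-box or CCT proteins and clock components read the light period, and florigens carry the flowering signal to the apex, where MADS-box factors act. The zinc-finger CCT and clock list gave 3 higher (1 steadily) and 10 lower (7 steadily) of 20 (4 and 8 with plain totals), with a median of -0.74. CONSTANS-like Os03g0711100 stood at 459 and 503 CPM in WT, 219.9 and 254 in OX, 314 and 320.3 in KO, CO6-like Os02g0178100 at 173 and 194 CPM in WT, 73.8 and 83 in OX, 108 and 112 in KO, and the B-box gene Os02g0606200 at 175 and 196 CPM in WT, 63.9 and 75.2 in OX, 105 and 100.0 in KO. For Os03g0711100, Os02g0178100 and Os02g0606200 the log2 fold changes were -1.02 ± 0.08, -1.23 ± 0.09 and -1.42 ± 0.10, with edgeR adjusted p = 0.0012, 0.00075 and 0.00075. WT was highest and OX lowest in all of them. A CONSTANS-like transcript, Os05t0595300-02, rose instead (57 and 50.8 CPM in WT, 139 and 130.2 in OX, 68.4 and 64.4 in KO). For Os05t0595300-02 the log2 fold change was 1.32 ± 0.08 (edgeR adjusted p = 0.00047). The time of harvest in the day is not given in the sources used here.

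All 10 members of the MADS-box and florigen list are given, again a choice made after seeing values: 1 higher (0 steadily) and 6 lower (5 steadily) of 10. The most abundant was OsMADS18, Os07g0605200 (chr7:24788476-24793679), an APETALA1-type factor, at 93.1 and 91.7 CPM in WT, 32.4 and 31.6 in OX, 51.7 and 51.7 in KO. The change of Os07g0605200 was -1.53 ± 0.06 on the log2 scale (edgeR adjusted p = 0.00013). Its OX libraries were the lowest and WT the highest. Among SP3D-like genes, Os06g0157700 stood at 40.2 and 43.3 CPM in WT, 0.315 and 0.643 in OX, 29.6 and 26 in KO, Os06g0552900 at 3.06 and 4.44 CPM in WT, 0.221 and 0.409 in OX, 0.92 and 1.06 in KO and Os01t0218500-02 at 1.43 and 0.922 CPM in WT, 0.126 and 0.0585 in OX, 0.92 and 0.512 in KO (-3.63 ± 0.60, not steady). Os06g0552900 gave a log2 fold change of -3.55 ± 0.42 (edgeR adjusted p = 0.0045). The levels of the last were low everywhere. The MADS genes Os03g0215400 (17.7 and 17 CPM in WT, 0.252 and 0.117 in OX, 11.5 and 13.6 in KO) and Os03g0752800 (11.5 and 11.2 CPM in WT, 0.567 and 0.76 in OX, 4.72 and 4.35 in KO) were below 1 CPM in OX, and KO lay between OX and WT. Os05g0468800, with the same PEBP fold as florigens, was the only member called higher (1.94 and 1.76 CPM in WT, 5.17 and 5.67 in OX, 4.41 and 4.13 in KO; 1.55 ± 0.20, not steady). Os04g0614100, Os08g0531900 and Os08g0494100 were uncalled at 0.42 ± 0.53, -1.17 ± 0.36 and -1.77 ± 0.42 (log2 fold change ± SE), with no library above 3.03 CPM.

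**Figure D3:**
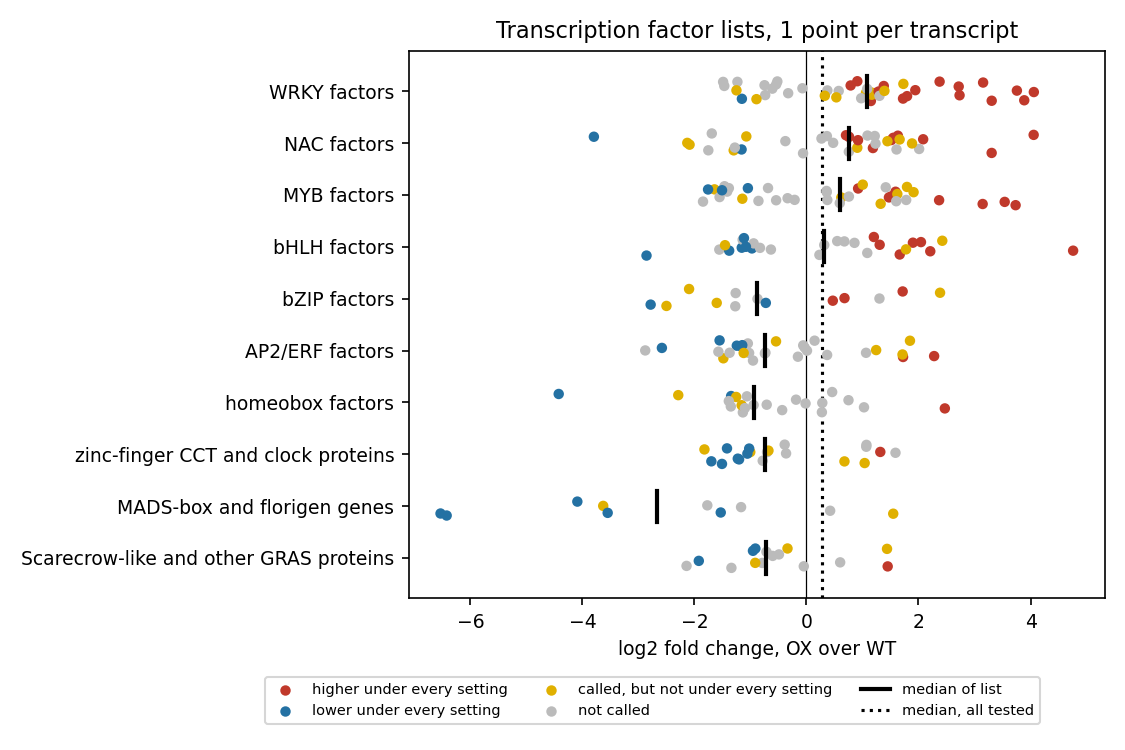
Log2 fold changes of OX against WT for the members of transcription factor families, 1 point per tested transcript, with steady calls in red and blue, other calls in yellow, uncalled transcripts in grey and a bar at each median. The WRKY points lie mostly to the right of 0, whereas those of the MADS-box and florigen list and the CCT and clock list lie mostly to the left, with medians of 1.07, -2.66 and -0.74.

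Receptor families that sense pathogens and wall fragments were called higher more often than lower. Leucine-rich repeat receptors gave 29 higher (17 steadily) and 3 lower (2 steadily) of 51, with a median of 1.30. The most abundant, Os08g0247600, stood at 194 and 182 CPM in WT, 263 and 257 in OX, 31.3 and 31.8 in KO. For Os08g0247600 the log2 fold change was 0.47 ± 0.05 (edgeR adjusted p = 0.0038). KO was far below both other groups. Os02g0597300 stood at 7.63 and 7.58 CPM in WT, 36.8 and 36.3 in OX, 65.4 and 68.4 in KO, with KO highest, and the receptor kinase Os11g0208900 fell (191 and 188 CPM in WT, 121 and 122 in OX, 79.8 and 84.2 in KO; log2 fold change -0.64 ± 0.05). The change of Os02g0597300 was 2.26 ± 0.07 on the log2 scale (edgeR adjusted p = 9e-05). Lectin, wall-associated and cysteine-rich receptor kinases gave 14 higher (6 steadily) and 5 lower (1 steadily) of 38 (13 and 8 with DESeq2 size factors, 16 and 2 with plain totals). The ricin B-like lectin Os07g0683900, by far the most abundant, was the 1 steady fall (1072 and 1090.3 CPM in WT, 476 and 491 in OX, 1004 and 977 in KO). Os07g0683900 gave a log2 fold change of -1.16 ± 0.04 (edgeR adjusted p = 9.5e-05). NB-ARC proteins, intracellular immune receptors, gave 34 higher (15 steadily) and 13 lower (9 steadily) of 94 (24 and 16 with DESeq2 size factors, 44 and 11 with plain totals). On chromosome 11, Os11g0226933 rose (31.6 and 28.2 CPM in WT, 74.6 and 68 in OX, 138 and 149 in KO; 1.25 ± 0.09) and Os11g0220300 fell (62.5 and 69 CPM in WT, 16.2 and 17.6 in OX, 32.5 and 31.5 in KO; -1.96 ± 0.09).

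Calcium sensors and kinases pass on such signals and gave 21 higher (10 steadily) and 17 lower (10 steadily) of 65 (29 and 11 with plain totals). The calcium-dependent kinase transcript Os02t0126400-02 stood at 8.71 and 10.1 CPM in WT, 53.8 and 56.7 in OX, 239.7 and 235 in KO, and a calmodulin, Os03g0319300, at 78.5 and 86.1 CPM in WT, 214 and 212 in OX, 275 and 267 in KO. For Os02t0126400-02 and Os03g0319300 the log2 fold changes were 2.55 ± 0.09 and 1.37 ± 0.06, with edgeR adjusted p = 0.0001 and 0.00019. OX lay between WT and KO in both. Falls included a hypersensitive-reaction calcium-binding protein, Os03g0310800 (245 and 246 CPM in WT, 121 and 121 in OX, 52.8 and 48.4 in KO; -1.02 ± 0.06), and CBL-interacting kinase 29, Os07g0678300 (96 and 103 CPM in WT, 35.6 and 42.4 in OX, 124 and 126 in KO; -1.35 ± 0.10). Protein phosphatases 2C, some of which restrain abscisic acid signalling, gave 13 higher (3 steadily) and 3 lower (1 steadily) of 21 (14 and 1 with plain totals). Most of those calls were not steady, and the whole list summed to only 205 and 206 CPM in WT and 334 and 343 CPM in OX. Among the 3 steady rises was Os01g0656200, also at a low level (5.03 and 4.78 CPM in WT and 17.2 and 17.4 CPM in OX; 1.82 ± 0.11). The ABI2-like transcript Os05t0592800-02 fell (32.4 and 24.4 CPM in WT and 5.89 and 8.36 CPM in OX; -1.99 ± 0.26).

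Chitinases, glucanases, protease inhibitors and other pathogenesis-related proteins gave 26 higher (17 steadily) and 12 lower (9 steadily) of 79 (37 and 9 with plain totals). Bowman-Birk inhibitors, which block trypsin-like proteases, were divided between nearby genes on chromosome 1. Os01g0124000 (chr1:1341368-1342277) stood at 68.5 and 72.7 CPM in WT, 186 and 199 in OX, 109 and 115 in KO, and Os01t0124200-02 (chr1:1347665-1348723) at 92.3 and 97.2 CPM in WT, 41 and 41.7 in OX, 57.4 and 58.4 in KO. For Os01g0124000 and Os01g0124200 the log2 fold changes were 1.45 ± 0.07 and -1.20 ± 0.06, with edgeR adjusted p = 0.0002 and 0.00025. The first was highest and the second lowest in OX. Os03g0823400 of the same type fell (82 and 86.6 CPM in WT, 20.9 and 21.7 in OX, 85.2 and 91.4 in KO), with KO level with WT. Os03g0823400 gave a log2 fold change of -1.98 ± 0.07 (edgeR adjusted p = 0.0001). The class III chitinase transcript Os05t0247100-02 was lowest in OX and highest in KO (124 and 129.9 CPM in WT, 68.4 and 78.5 in OX, 198 and 203 in KO; -0.79 ± 0.08). Class III peroxidases and laccases, which act in walls and lignin, gave 1 higher (0 steadily) and 2 lower (2 steadily) of 15 (2 and 2 with plain totals), the falls being Os03t0762300-01 (-1.68 ± 0.11) and Os02g0240300 (24.1 and 27.4 CPM in WT, 4.16 and 4.27 in OX, 55.2 and 57.6 in KO; -2.61 ± 0.10). The VQ, harpin-induced and Exo70 group, partners of WRKY factors and of secretion, gave 8 higher (3 steadily) and 6 lower (1 steadily) of 34 (11 and 3 with plain totals).

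Hormone genes other than jasmonate were called lower more often than higher for auxin, with 6 higher (4 steadily) and 17 lower (11 steadily) of 47 and a median of -0.72 (9 and 14 with plain totals). The auxin efflux carrier Os01g0919800 (chr1:40136226-40142760), of the PIN type that moves auxin between cells, stood at 92.2 and 91.1 CPM in WT, 3.65 and 3.77 in OX, 115 and 113 in KO. For Os01g0919800 the log2 fold change was -4.62 ± 0.06 (edgeR adjusted p = 2.2e-05). Its OX libraries were far below the other 4, and KO was the highest group. The most abundant member, the SAUR gene Os10g0510500, also fell (331 and 340.3 CPM in WT, 197 and 203 in OX, 120.2 and 115 in KO). The change of Os10g0510500 was -0.75 ± 0.05 on the log2 scale (edgeR adjusted p = 0.00052). Another efflux carrier, Os09g0554300 (19.9 and 18.6 CPM in WT, 39 and 39.3 in OX, 11.3 and 12.3 in KO), and the indole-3-acetate glucosyltransferase-like Os09g0518000 (4.34 and 5.19 CPM in WT, 29.2 and 34.1 in OX, 17.1 and 18.7 in KO) rose. For Os09g0554300 and Os09g0518000 the log2 fold changes were 1.02 ± 0.09 and 2.73 ± 0.15, with edgeR adjusted p = 0.0018 and 0.00035. Cytokinin and ethylene genes gave 1 higher (1 steadily) and 6 lower (5 steadily) of 18 (3 and 5 with plain totals). The other 11 were uncalled, and the median of this list was 0.46, against 0.28 over all tested transcripts. The A-type response regulators, which are induced by cytokinin and damp its signal, fell for Os02t0557800-02 (194 and 205 CPM in WT, 67.7 and 76.2 in OX, 142 and 136 in KO) and Os01g0952500 (138 and 134 CPM in WT, 64 and 67.4 in OX, 59.5 and 61.6 in KO). For Os02g0557800 and Os01g0952500 the log2 fold changes were -1.47 ± 0.08 and -1.05 ± 0.06, with edgeR adjusted p = 0.00027 and 0.00034. ACC oxidases, which release ethylene, were split: Os02g0771600 fell (119 and 129.5 CPM in WT, 55.8 and 51.2 in OX, 122 and 117 in KO; log2 fold change -1.22 ± 0.07) and Os05g0149400 rose (20.8 and 23.7 CPM in WT, 52.2 and 56.3 in OX, 46.4 and 47.6 in KO; 1.28 ± 0.09). The gibberellin list gave 2 higher (1 steadily) and 2 lower (1 steadily) of 14, with 3 and 1 calls under plain totals and 1 and 2 under DESeq2 size factors.

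Nitrogen assimilation showed opposite calls in successive steps. Of 29 tested, 10 were called higher (8 steadily) and 7 lower (6 steadily), with a median log2 fold change of 0.23. Nitrate reductase makes nitrite, and Os08g0468100 (255 and 275 CPM in WT, 413 and 458 in OX, 556 and 574 in KO) and Os08g0468700 (163 and 179 CPM in WT, 254 and 281 in OX, 351 and 357 in KO) rose. For Os08t0468100-01 and Os08g0468700 the log2 fold changes were 0.72 ± 0.07 and 0.65 ± 0.07, with edgeR adjusted p = 0.0022 and 0.0037. These neighbours may share reads. Os02g0770800, the isoform with the largest fold, stood at 11.9 and 11.4 CPM in WT, 177 and 201 in OX, 84.5 and 83.8 in KO. Ferredoxin-nitrite reductase, the next enzyme, fell for transcripts 01 (527 and 514 CPM in WT, 217 and 244 in OX, 594 and 584 in KO) and 02 (371 and 423 CPM in WT, 202 and 212 in OX, 724 and 713 in KO) of Os01g0357100. For Os01t0357100-01 and Os01t0357100-02 the log2 fold changes were -1.17 ± 0.06 and -0.94 ± 0.07, with edgeR adjusted p = 0.00034 and 0.00094. KO was higher than WT for transcript 02. N-acetylglutamate synthase-like Os03g0431200, of arginine synthesis, fell as well (227 and 225 CPM in WT, 53.3 and 47.9 in OX, 231 and 233 in KO), with KO level with WT. For Os03g0431200 the log2 fold change was -2.16 ± 0.07 (edgeR adjusted p = 8e-05).

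Amino acid synthesis gave 7 higher (6 steadily) and 7 lower (5 steadily) of 22, and the falls included the first and the last enzyme on the way from aspartate to threonine: aspartokinase Os09g0294000 (1667 and 1589 CPM in WT, 643 and 639 in OX, 1639.7 and 1676 in KO) and threonine synthase Os01g0693800 (247 and 262 CPM in WT, 85.7 and 91.6 in OX, 199 and 186 in KO). For Os09g0294000 and Os01g0693800 the log2 fold changes were -1.34 ± 0.04 and -1.52 ± 0.07, with edgeR adjusted p = 7.5e-05 and 0.00018. KO was close to WT for the first and below it for the second. Anthranilate synthase beta, Os04g0463500, on the way to tryptophan, rose (18.2 and 16.2 CPM in WT, 34 and 37.3 in OX, 61.4 and 62.8 in KO; log2 fold change 1.05 ± 0.09), as did the EPSP synthase of the shikimate pathway, Os06g0133900 (16.4 and 19.6 CPM in WT, 40.8 and 36.1 in OX, 17.9 and 18.8 in KO; 1.10 ± 0.13). Amino acid transporters gave 7 higher (3 steadily) and 8 lower (8 steadily) of 29. Os12g0194900 stood at 86.2 and 85 CPM in WT, 3.18 and 5.38 in OX, 67 and 75.3 in KO, with OX far below the other libraries. Os12g0194900 gave a log2 fold change of -4.32 ± 0.27 (edgeR adjusted p = 0.00082). Os01g0597600 rose (5.31 and 4.99 CPM in WT, 83.7 and 79 in OX, 99.4 and 94.2 in KO), and OX and KO were both far above WT. For Os01g0597600 the log2 fold change was 3.98 ± 0.08 (edgeR adjusted p = 3.8e-05). Peptide and nitrate-peptide transporters gave 3 higher (2 steadily) and 8 lower (6 steadily) of 27, the most abundant being Os12g0231000, which fell (205 and 212 CPM in WT, 41.4 and 43.5 in OX, 114 and 117 in KO; -2.29 ± 0.06).

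Metal and phosphate genes were called lower more often than higher. Metal homeostasis gave 9 higher (9 steadily) and 19 lower (11 steadily) of 45 (12 and 15 with plain totals). Ferritins, which store iron in plastids, stood at 1201 and 1181 CPM in WT, 457 and 461 in OX, 1050.0 and 1032 in KO for Os12g0106000 and at 1015 and 1036 CPM in WT, 423 and 425 in OX, 1056 and 1069.5 in KO for Os11t0106700-02. For Os12g0106000 and Os11t0106700-02 the log2 fold changes were -1.37 ± 0.04 and -1.27 ± 0.04, with edgeR adjusted p = 5.8e-05 and 6.4e-05. These near-identical copies may share reads, and in both OX was lowest, with KO close to WT. Metallothioneins, small metal-binding proteins, parted: the type 3 gene Os01g0200700, among the most abundant transcripts of the leaf, fell (18164 and 17192 CPM in WT, 7958 and 7954 in OX, 12376 and 12194 in KO), while the type 1 gene Os11g0704500 rose (146 and 142 CPM in WT, 411 and 417 in OX, 158 and 149 in KO). For Os01g0200700 and Os11g0704500 the log2 fold changes were -1.15 ± 0.04 and 1.53 ± 0.05, with edgeR adjusted p = 9e-05 and 9e-05. Phosphate homeostasis gave 1 higher (1 steadily) and 5 lower (4 steadily) of 20 (2 and 5 with plain totals). The phosphate transporter Os02g0593500 fell (575 and 572 CPM in WT, 288 and 273 in OX, 299 and 296 in KO), as did Os05g0488600, described as a phosphate starvation regulator (24.6 and 22.4 CPM in WT, 1.39 and 1.49 in OX, 22.4 and 22.4 in KO). For Os02g0593500 and Os05g0488600 the log2 fold changes were -1.03 ± 0.04 and -4.03 ± 0.12, with edgeR adjusted p = 0.00018 and 8.3e-05. Phosphate transporter 6, Os10g0444700, stood at 60.5 and 68.3 CPM in WT and 12.6 and 176 CPM in OX, with Ox_3 below and Ox_5 above both WT libraries.

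The table held 7 aquaporins, the water channels of plasma membrane and vacuole: 3 higher (2 steadily) and 2 lower (2 steadily) of 7. Aquaporin 2-like Os09g0541000 stood at 210.4 and 218 CPM in WT, 544 and 636 in OX, 170.2 and 174 in KO, and the plasma membrane intrinsic protein Os02g0823100 at 166 and 176 CPM in WT, 438 and 432 in OX, 172 and 168 in KO. For Os09t0541000-01 and Os02g0823100 the log2 fold changes were 1.46 ± 0.08 and 1.35 ± 0.05, with edgeR adjusted p = 0.00035 and 0.0001. In both, OX was above the WT and KO libraries. The delta-tonoplast intrinsic protein Os06g0336200, a vacuolar channel, went the other way (294 and 300.3 CPM in WT, 59.9 and 64.9 in OX, 246 and 234 in KO), as did Os01g0232000 (31.9 and 41.6 CPM in WT, 6.90 and 8.51 in OX, 14.5 and 18.8 in KO). For Os06t0336200-01 and Os01g0232000 the log2 fold changes were -2.25 ± 0.06 and -2.25 ± 0.22, with edgeR adjusted p = 6.1e-05 and 0.0021. The uncalled tonoplast transcript Os03t0146100-03 stood at 3.41 and 19.5 CPM in WT and 2.96 and 11.8 CPM in OX, with the replicates of each group far apart. ABC and MATE transporters gave 14 higher (7 steadily) and 7 lower (4 steadily) of 39 (20 and 4 with plain totals), with a fall of the MATE gene Os03g0229500 (25 and 28.9 CPM in WT, 1.51 and 1.81 in OX, 22.2 and 23 in KO; -4.02 ± 0.16).

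Beyond the light-harvesting and photosystem genes, several plastid families were called lower more often than higher. Chlorophyll synthesis gave 1 higher (0 steadily) and 5 lower (4 steadily) of 14 (2 and 4 with plain totals). Geranylgeranyl reductase Os02g0744900, which makes the phytyl tail, stood at 3345 and 3568 CPM in WT, 1370.5 and 1448 in OX, 1958 and 1937 in KO. For Os02g0744900 the log2 fold change was -1.29 ± 0.05 (edgeR adjusted p = 0.00013). Glutamyl-tRNA reductase Os10g0502400, the entry enzyme (1324 and 1364 CPM in WT, 643 and 629.6 in OX, 931 and 908 in KO), and a magnesium chelatase subunit, Os03g0563300 (812 and 818 CPM in WT, 336 and 354 in OX, 581 and 567 in KO), fell too. For Os10g0502400 and Os03g0563300 the log2 fold changes were -1.08 ± 0.04 and -1.24 ± 0.04, with edgeR adjusted p = 0.0001 and 0.0001. KO lay between OX and WT for all of them. The carotenoid list gave 0 higher and 1 lower of 5, with 4 uncalled. The 1 called member, the carotenoid oxygenase Os02g0704000, fell (1981 and 2193 CPM in WT, 714 and 795 in OX, 1048 and 1090.0 in KO). Os02g0704000 gave a log2 fold change of -1.47 ± 0.08 (edgeR adjusted p = 0.00028). Calvin cycle and photorespiration transcripts gave 2 higher (0 steadily) and 9 lower (8 steadily) of 20, and carbonic anhydrase Os01g0639900 stood at 5814 and 5944 CPM in WT, 2602 and 2840.0 in OX, 4205 and 4092 in KO (-1.11 ± 0.05). The plastid ribosome and RNA list gave 3 higher (2 steadily) and 6 lower (4 steadily) of 16 (4 and 4 with plain totals): plastid-specific ribosomal protein 1, Os03t0856500-01, stood at 336 and 359 CPM in WT, 120.2 and 126 in OX, 443 and 451 in KO, with KO above WT, whereas a 50S L6-like protein, Os03g0751400, rose (8.48 and 7.79 CPM in WT and 17.7 and 16.5 CPM in OX; 1.07 ± 0.12). For Os03t0856500-01 the log2 fold change was -1.50 ± 0.05 (edgeR adjusted p = 0.0001). The light signalling list gave 3 higher (3 steadily) and 1 lower (0 steadily) of 8, with 4 uncalled and a median log2 fold change of 0.0042. Early light-inducible proteins, which bind pigments under excess light, were higher in OX than in both other groups for the genes given here. Os07g0178700 stood at 34.4 and 43.2 CPM in WT, 93.7 and 109.7 in OX, 35.9 and 42.8 in KO, Os07g0178800 at 13.8 and 17.9 CPM in WT, 55.6 and 66.4 in OX, 17.8 and 22 in KO and Os01g0246400 at 18.9 and 21.3 CPM in WT, 58 and 64.4 in OX, 17.9 and 21.6 in KO. For Os07g0178700, Os07g0178800 and Os01g0246400 the log2 fold changes were 1.39 ± 0.16, 1.94 ± 0.19 and 1.61 ± 0.13, with edgeR adjusted p = 0.0044, 0.0023 and 0.0011. The neighbours on chromosome 7 may share reads.

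Cell wall enzymes gave 16 higher (9 steadily) and 4 lower (3 steadily) of 51 (14 and 6 with DESeq2 size factors), with a median of 1.02. Cellulose synthase-like A1, Os06g0230100 (chr6:6757996-6762787), from a family that makes mannan, stood at 6.85 and 4.19 CPM in WT, 90.9 and 87 in OX, 9.09 and 8.99 in KO. Os06g0230100 gave a log2 fold change of 4.01 ± 0.25 (edgeR adjusted p = 0.00065). The hypothetical gene with a neighbouring number, Os06g0230000 (chr6:6754294-6755540), had one of the largest rises over all transcripts (1.47 and 0.838 CPM in WT, 51.4 and 56 in OX, 3.49 and 4.61 in KO). For Os06g0230000 the log2 fold change was 5.53 ± 0.31 (edgeR adjusted p = 0.00043). Cellulose synthase 4, Os07g0208500 (19.1 and 19.4 CPM in WT, 57.5 and 59.1 in OX, 14.7 and 16.5 in KO; 1.60 ± 0.09), and the RSW1-like Os05t0176100-05 (17.5 and 11.5 CPM in WT, 56.4 and 57.8 in OX, 20.9 and 19.9 in KO; 1.98 ± 0.20) rose, and the most abundant member, cellulose synthase-like E6, Os09g0478300, fell (485 and 462 CPM in WT, 232 and 222 in OX, 336 and 352 in KO). The change of Os09g0478300 was -1.06 ± 0.05 on the log2 scale (edgeR adjusted p = 0.00023). The expansin OsEXPA4, Os05g0477600, which loosens walls, fell from a low level (2.21 and 2.35 CPM in WT, 0.347 and 0.409 in OX, 0.537 and 0.622 in KO; -2.58 ± 0.31). Wax, lipid transfer and GDSL lipase genes gave 9 higher (5 steadily) and 4 lower (2 steadily) of 22, with rises of the lipid transfer proteins Os12g0115300 (224 and 231 CPM in WT, 381 and 411 in OX, 174 and 156 in KO; 0.80 ± 0.07) and Os11g0115400 (109 and 117 CPM in WT, 218 and 249 in OX, 111 and 115 in KO; 1.05 ± 0.08). The glycine-rich wall protein transcript Os10t0450900-02 stood at 65.4 and 63.9 CPM in WT, 619.8 and 409.7 in OX, 149 and 125 in KO (2.99 ± 0.23), with Ox_3 above Ox_5 and both above WT.

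Chaperones, proteolysis and chromatin were called in both directions. The shares called higher and lower were 29.4% and 20.6% for heat shock proteins and factors and 19.1% and 17.8% for ubiquitin ligases. They were 18.4% and 20.4% for histones and cell-cycle genes, against 25.0% and 19.0% over all tested transcripts. Heat shock proteins and factors gave 20 higher (14 steadily) and 14 lower (9 steadily) of 68 (28 and 9 with plain totals), including the heat shock factor Os02g0527300 (36.5 and 33.2 CPM in WT, 93.9 and 91.1 in OX, 129 and 131 in KO; log2 fold change 1.41 ± 0.07) and, downwards, the chaperonin Os08g0428900 (135 and 125 CPM in WT, 70.5 and 67.9 in OX, 59.3 and 55.5 in KO; -0.91 ± 0.07). Ubiquitin ligase subunits, the largest list with 157 tested, gave 30 higher (17 steadily) and 28 lower (15 steadily) of 157, and the split was 25 and 37 with DESeq2 size factors and 40 and 22 with plain totals. The RING and CHY finger gene Os01g0719100 stood at 92.4 and 83.9 CPM in WT, 218 and 197 in OX, 528 and 563 in KO and the BTB gene Os03g0206700 at 175 and 199 CPM in WT, 62.8 and 62.4 in OX, 107 and 109 in KO. For Os01t0719100-01 and Os03g0206700 the log2 fold changes were 1.24 ± 0.08 and -1.58 ± 0.07, with edgeR adjusted p = 0.00054 and 0.00022. KO was above OX for the first and between OX and WT for the second. Thioredoxins and glutaredoxins gave 6 higher (2 steadily) and 4 lower (3 steadily) of 17 (8 and 3 with plain totals), with a rise of the thioredoxin-fold gene Os05g0198200 (4.65 and 5.95 CPM in WT, 26.2 and 27.6 in OX, 4.79 and 4.17 in KO) and a fall of 1-Cys peroxiredoxin Os07g0638400 (6.35 and 5.87 CPM in WT, 0.41 and 0.585 in OX, 1.07 and 1.57 in KO). For Os05g0198200 and Os07g0638400 the log2 fold changes were 2.34 ± 0.17 and -3.60 ± 0.33, with edgeR adjusted p = 0.0008 and 0.0019. Senescence and autophagy genes gave 6 higher (6 steadily) and 2 lower (1 steadily) of 15 (9 and 1 with plain totals), led by a vacuolar processing enzyme, Os04g0537900 (41.6 and 40.1 CPM in WT, 111 and 106 in OX, 48.9 and 50.5 in KO; 1.41 ± 0.06). Histones and cell-cycle genes gave 9 higher (3 steadily) and 10 lower (6 steadily) of 49 (7 and 13 with DESeq2 size factors, 12 and 8 with plain totals), among them histone H4 Os10g0539500, which fell (115 and 112 CPM in WT, 63.3 and 55.2 in OX, 43.2 and 41 in KO; -0.94 ± 0.08). Ribosomal proteins and translation factors gave 6 higher (2 steadily) and 8 lower (5 steadily) of 44 (8 and 7 with plain totals), and pentatricopeptide repeat proteins, which process organelle RNA, 3 higher (1 steadily) and 5 lower (3 steadily) of 47 (1 and 7 with DESeq2 size factors, 5 and 3 with plain totals).

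Some of the largest changes over all transcripts were in genes without a described function, which held 1465 of the 7034 tested transcripts. The largest rise in log2 terms was Os03g0115800 (chr3:887193-888623), a conserved hypothetical protein, at 0.194 and 0.0838 CPM in WT, 90.5 and 91.9 in OX, 72.7 and 78 in KO. The change of Os03g0115800 was 9.30 ± 0.23 on the log2 scale (edgeR adjusted p = 5.3e-05). It had 5 and 2 reads in the WT libraries, so the fold rests on few reads there, and its OX and KO libraries differed little (log2 fold change of OX against KO 0.27, not called). Os02g0772100 (chr2:32591800-32593204), also hypothetical, was higher in OX than in the other 4 libraries (1.20 and 0.964 CPM in WT, 39.7 and 39.5 in OX, 0.115 and 0.219 in KO). Os02g0772100 gave a log2 fold change of 5.19 ± 0.23 (edgeR adjusted p = 0.00019). Os06g0493100 (chr6:17066928-17068612) gained the third most CPM of all (63.2 and 57.1 CPM in WT, 975 and 948 in OX, 142 and 148 in KO). For Os06g0493100 the log2 fold change was 4.00 ± 0.07 (edgeR adjusted p = 3.2e-05). The di-copper domain gene Os01g0793300, a feature of polyphenol oxidases, stood at 2.09 and 1.68 CPM in WT, 56.7 and 58 in OX, 3.87 and 4.50 in KO, and the DnaJ-like chaperone gene Os04g0675400 at 0.271 and 0.251 CPM in WT, 10.2 and 12.7 in OX, 1.07 and 0.987 in KO. For Os01g0793300 and Os04g0675400 the log2 fold changes were 4.92 ± 0.16 and 5.42 ± 0.27, with edgeR adjusted p = 9e-05 and 0.00025.

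Among the falls, hypothetical genes were abundant in WT. Os12g0515800 (chr12:20042293-20043043) stood at 2276 and 2147 CPM in WT, 183 and 197 in OX, 2114 and 1990.0 in KO and Os01g0910900 (chr1:39682842-39683433) at 2119 and 2004 CPM in WT, 339.7 and 344 in OX, 1711 and 1727 in KO. For Os12g0515800 and Os01g0910900 the log2 fold changes were -3.54 ± 0.06 and -2.59 ± 0.04, with edgeR adjusted p = 3.7e-05 and 3.1e-05. Close to the latter on chromosome 1, Os01g0910500 (chr1:39670759-39672253) had one of the 10 largest falls (230.0 and 244 CPM in WT, 3.91 and 5.93 in OX, 210.5 and 218 in KO). For Os01g0910500 the log2 fold change was -5.59 ± 0.22 (edgeR adjusted p = 0.00023). In all of them OX was far below and KO slightly below WT. Other large falls were those of Os05g0111300 (81.2 and 90.4 CPM in WT, 2.27 and 2.43 in OX, 80.7 and 77.7 in KO), Os03g0782200 (118 and 125 CPM in WT, 3.12 and 3.74 in OX, 47.8 and 49 in KO), Os06g0141200 (68.9 and 68.7 CPM in WT, 1.73 and 2.63 in OX, 44.7 and 42.6 in KO) and Os02t0203700-02 (15.7 and 20.2 CPM in WT, 0.567 and 0.322 in OX, 19.7 and 15.9 in KO), with log2 fold changes of -5.19, -5.14, -4.97 and -5.33. Of 1465 tested proteins without a described function, 291 were called higher (126 steadily) and 227 lower (108 steadily). These shares, 19.9% and 15.5%, were below the 25.0% and 19.0% over all tested transcripts. Of 129 tested noncoding transcripts, 20 were called higher (6 steadily) and 28 lower (8 steadily), the largest named fall being Os08g0536350 (17 and 19.3 CPM in WT, 2.14 and 2.54 in OX, 17.4 and 19.5 in KO; log2 fold change -2.95 ± 0.16). With plain totals the splits were 421 and 151 for these proteins and 30 and 16 for noncoding transcripts.

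**Figure D4:**
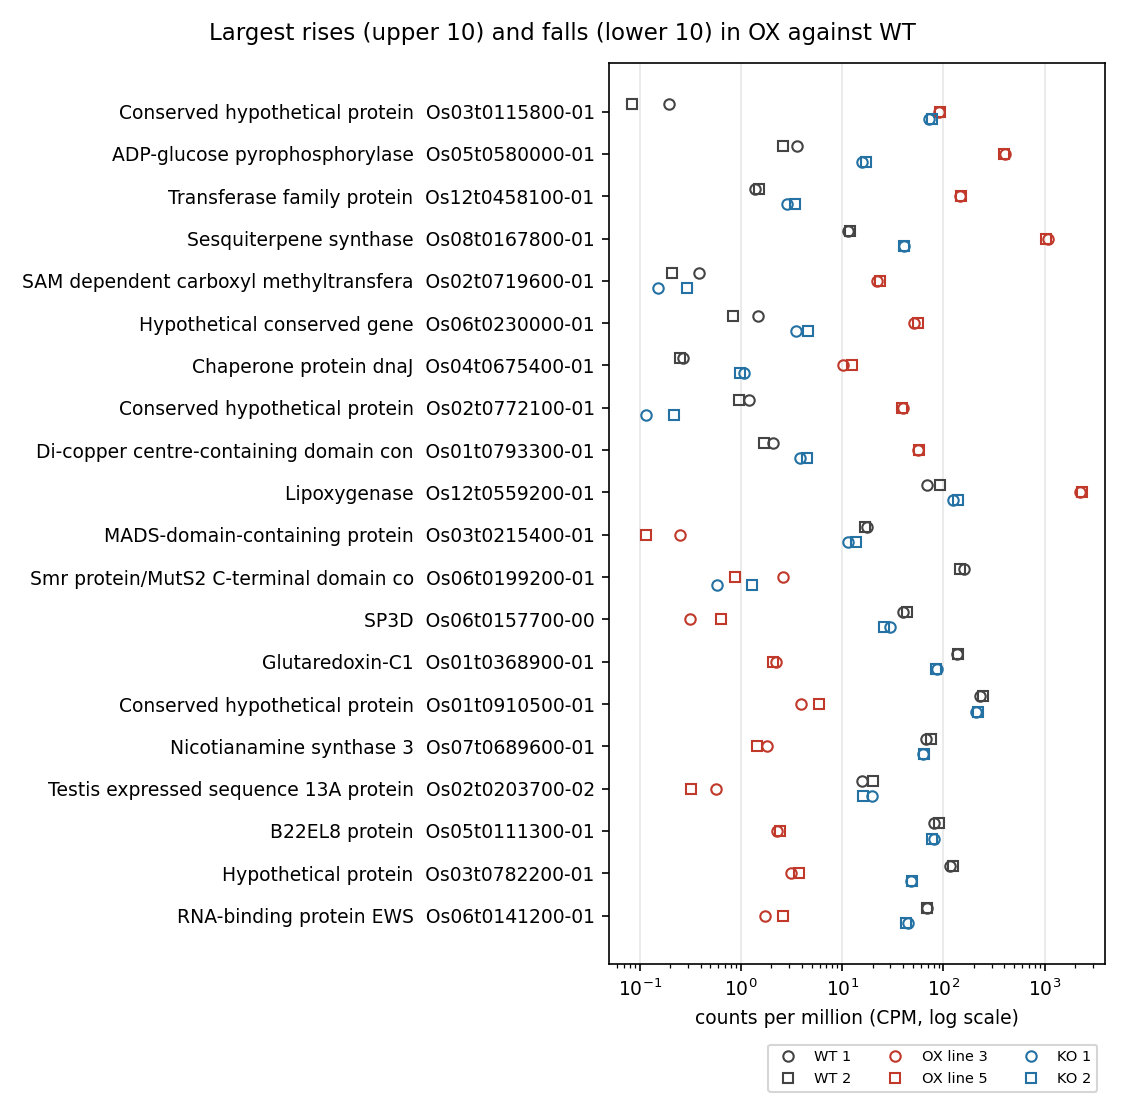
CPM on a log scale of the transcripts with the largest steady rises and falls in OX, with circles for replicate 1 and squares for replicate 2 of WT, OX and KO. The OX points are separated from WT throughout, and KO points lie near WT for most of them but near OX for Os03g0115800 and Os06t0199200-01.

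Examples among the large changes were also compared with KO, a comparison that shares the OX libraries with the one above. They do not stand for all large changes, as Os03g0115800 was not called between OX and KO. Between OX and KO 38.3% of tested transcripts were called (13.3% higher and 25.0% lower in OX). Os05g0580000 was higher in OX than in KO (log2 fold change 4.60, SE 0.15, edgeR adjusted p = 0.00013), as were Os08g0167800 (log2 fold change 4.71, SE 0.05, edgeR adjusted p = 1.9e-05) and Os02g0772100 (log2 fold change 7.84, SE 0.28, edgeR adjusted p = 0.00012). Os01g0919800 (log2 fold change -4.94, SE 0.06, edgeR adjusted p = 1.9e-05), Os06g0157700 (log2 fold change -5.84, SE 0.31, edgeR adjusted p = 0.00046) and Os01g0910500 (log2 fold change -5.44, SE 0.22, edgeR adjusted p = 0.0003) were lower in OX than in KO. All 6 of these calls were steady.

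The authors' KEGG pathway assignments gave a view that does not rest on the words of the descriptions. Starch and sucrose metabolism had 25 higher (22 steadily) and 10 lower (5 steadily) of 44, amino sugar and nucleotide sugar metabolism 16 higher (14 steadily) and 4 lower (4 steadily) of 39, and plant-pathogen interaction 24 higher (17 steadily) and 5 lower (2 steadily) of 51. Lower calls outnumbered higher ones in photosynthesis with 0 higher (0 steadily) and 18 lower (16 steadily) of 21, cysteine and methionine metabolism with 6 higher (5 steadily) and 13 lower (7 steadily) of 27, glutathione metabolism with 6 higher (2 steadily) and 12 lower (5 steadily) of 25, glycine, serine and threonine metabolism with 2 higher (1 steadily) and 9 lower (6 steadily) of 15, glyoxylate and dicarboxylate metabolism with 2 higher (1 steadily) and 8 lower (6 steadily) of 13, and zeatin biosynthesis with 1 higher (1 steadily) and 6 lower (6 steadily) of 10. With plain totals the lower calls no longer outnumbered the higher in cysteine and methionine metabolism (8 and 8) or glutathione metabolism (7 and 6). The split was then 28 and 5 for starch and sucrose metabolism, 3 and 7 for glycine, serine and threonine metabolism and 2 and 6 for zeatin biosynthesis.

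Some genes exchanged 1 transcript for another. In 17 genes at least 1 transcript was called higher and another lower, and in 5 of them both calls were steady. For Os05g0119300 transcript 01 stood at 592 and 620.2 CPM in WT, 912 and 852 in OX, 1491 and 1466 in KO and transcript 03 at 416 and 442 CPM in WT, 208 and 194 in OX, 111 and 113 in KO, while their sum was 1007 and 1063 CPM in WT against 1119.7 and 1046 CPM in OX. For Os05t0119300-01 and Os05t0119300-03 the log2 fold changes were 0.54 ± 0.05 and -1.09 ± 0.06, with edgeR adjusted p = 0.0018 and 0.00031. For Os06g0704400, with a transposase domain, transcript 01 stood at 37.4 and 31.3 CPM in WT, 2.96 and 3.04 in OX, 8.90 and 11.1 in KO and transcript 02 at 18.2 and 15.9 CPM in WT, 39.3 and 38.4 in OX, 34.4 and 30.6 in KO. For Os06t0704400-01 and Os06t0704400-02 the log2 fold changes were -3.52 ± 0.17 and 1.18 ± 0.11, with edgeR adjusted p = 0.00025 and 0.0018. The ADP-ribosylation factor-like gene Os11g0586900 had transcript 01 lower (16.1 and 15.5 CPM in WT, 7.66 and 7.75 in OX, 7.63 and 7.64 in KO) and transcript 02 higher (0.232 and 0.293 CPM in WT, 3.02 and 4.09 in OX, 4.26 and 3.47 in KO). For Os01g0800300 transcript 01 stood at 0.697 and 1.01 CPM in WT, 10.1 and 10.8 in OX, 11 and 10.9 in KO and transcript 03 at 6.43 and 9.43 CPM in WT, 0.221 and 0.205 in OX, 0.23 and 0.366 in KO. For each of these genes the KO libraries lay on the same side of WT as the OX libraries. Estimated counts of transcripts of 1 gene share reads, so each pair depends on how the authors' counter divided them.

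Among the listed transcripts the 2 overexpression lines were close to each other. The authors' selection by fold and p can favour transcripts on which replicates agree, and transcripts outside their table were not seen. Of 2138 transcripts with a mean of at least 10 CPM, 75 differed 2-fold or more between Ox_3 and Ox_5, against 93 between the WT libraries and 92 between the KO libraries. The median absolute log2 ratio was 0.108 between the lines and 0.128 between the WT libraries. For 26 transcripts 1 line was above and the other below both WT libraries. Another set was used for the gaps between the lines, with no limit on the mean but at least 10 CPM in the higher line and WT libraries within 1.5-fold of each other. The widest gaps there were in single transcripts of a gene: the glutamine synthetase transcript Os02t0735200-03 stood at 0.349 and 0.377 CPM in WT, 11.3 and 0.351 in OX, 0.307 and 0.293 in KO, and the magnesium chelatase transcript Os03t0323200-02 at 3.76 and 3.69 CPM in WT, 3.09 and 92.5 in OX, 95.4 and 4.02 in KO. In the former Ox_3 alone was high, and in the latter Ox_5 and KO 1 were high. The class III chitinase RCB4, Os10g0416100, stood at 24.3 and 24 CPM in WT, 19.7 and 2.48 in OX, 30.1 and 31.7 in KO, with Ox_5 alone low. With 1 library per line, differences between the lines have no replicate and were not tested.

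**Figure D5:**
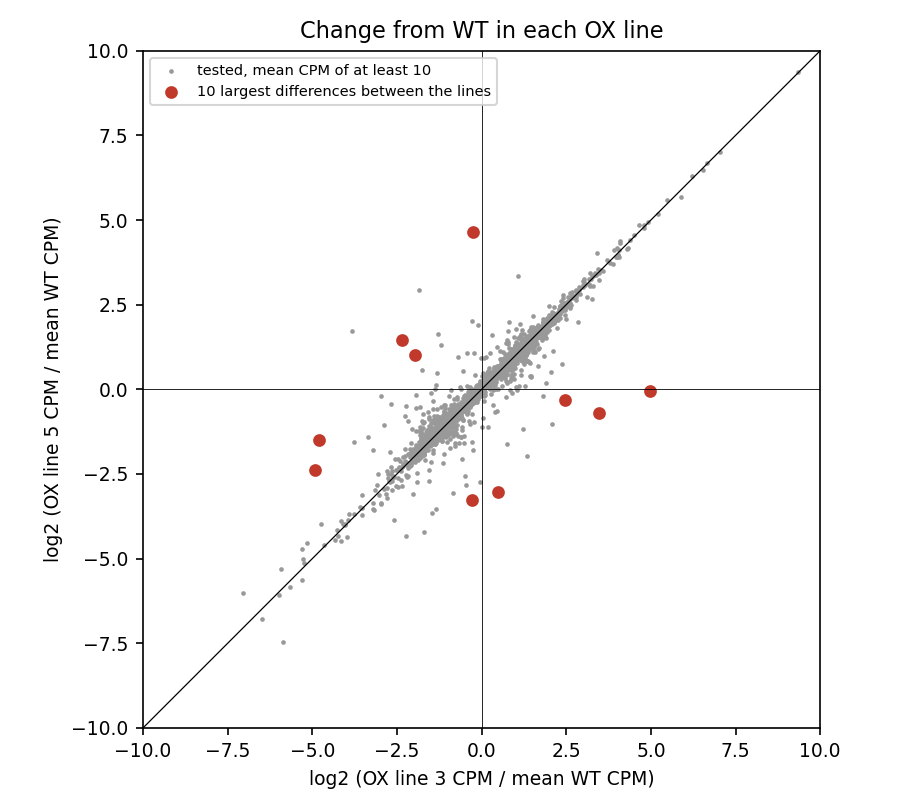
Log2 ratio to the WT mean in line Ox_3 (horizontal) and in line Ox_5 (vertical) for 2138 transcripts with at least 10 CPM. Most points lie along the diagonal, and the 10 red points, chosen apart from that limit, are the 5 transcripts each way of largest ratio between the lines among those with at least 10 CPM in the higher line and within 1.5-fold between the WT libraries.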

How the data were processed

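RNA of 6 leaf libraries was prepared with a TruSeq Stranded mRNA kit, per the labels. IRGSP-1.0 is the build that the submitters' processing notes name. The aligner, counter, strand setting and test of the authors were not stated there. Of 27384 transcripts that the authors tested, their table lists 7194, all past their limits on fold and p in some comparison. Counts in the deposited table are estimated counts, rounded up to whole numbers from 1 upwards. The authors' FPKM values, relative to transcript length and depth, gave the total reads. TPM values, deposited on a scale over all transcripts, were not used. From the authors' deposited log2 normalised values came the effective library totals of 23869522 to 34214364. The authors' fold changes, deposited as a signed score, served only to describe the selection, in which 4306 transcripts passed in OX against WT. Their deposited p-values served for that too, and also gave the number of transcripts they had tested, which the adjustment below uses. Pathway names and members were taken from the authors' KEGG files.

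The main test was edgeR 4.0.16 under R 4.3.3, with robust quasi-likelihood, group as the term and the authors' effective totals as library sizes, on all 6 libraries at once. A filter on low counts removed 160 transcripts. Benjamini-Hochberg adjustment used 27384 as the number of tests. Transcripts without a p-value here, among them all unlisted ones, were assumed to have larger p-values. Calls were made below 0.05. The SE is the log2 fold change divided by the square root of F. The biological coefficient of variation was 0.291, with 2 libraries a group. It was estimated on listed transcripts only, and the authors' selection by fold and p can favour transcripts on which replicates agree. The SEs and adjusted p-values may therefore be too small, which was not tested. The procedure was tested on simulated data. The 13 alternatives were DESeq2 size factors, TMM on listed transcripts, plain totals, no filter, the DESeq2 1.42.0 Wald test, the replicate number as a block, WT and OX libraries only, and each of 6 libraries left out.

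The 56 family lists and 7 marker lists were matched to the file's descriptions, and a transcript may be in more than 1 list. The members and lists were chosen with earlier results of these data known. Named genes are the 10 steady rises and 10 steady falls of largest fold (at least 10 CPM in the higher group), and the 10 each way of largest CPM difference. Up to 3 steady rises, 3 steady falls and the highest uncalled member were named per list, with all GRAS members, up to 5 genes with steady opposite transcripts and 5 transcripts each way between the lines. Every starch synthesis and MADS-box or florigen member was added after values were seen. Transcripts of 1 gene, near-identical copies and, if strand was not used, antisense partners may share reads. The MIR171f precursor was not analysed here, as no listed description names it, so overexpression itself was not checked.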

Additional observations from a re-analysis of the deposited data

How the results depend on the processing

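Leaving out 1 library gave 1097 to 1527 higher and 882 to 1169 lower calls in OX against WT, the lone sample of a group being assumed to vary like the others. Outside these, higher calls ranged from 1506 to 2342 and lower calls from 968 to 1540, and counts summed per gene gave 1797 and 1348. The fit with the replicate number as a block gave 1532 higher and 1163 lower calls, but the labels do not say whether the numbers pair the samples. Over 2089 transcripts the deviations of same-numbered libraries correlated at 0.145 for WT and OX, 0.121 for WT and KO, and 0.012 for OX and KO. With 2 libraries a group these values cannot decide whether the numbers pair them. No named transcript that was called reversed, except the unsteady Os01t0842200-01.

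All other named transcripts whose log2 fold change changed sign, apart from Os01t0842200-01, were uncalled. With plain library totals the value was 0.017 for Os01t0153300-00, 0.032 for Os01t0842200-01, 0.13 for Os01t0960500-01, 0.049 for Os02t0206100-02, 0.17 for Os02t0323600-01, 0.13 for Os03t0342900-04, 0.36 for Os07t0290200-01, 0.17 for Os09t0272000-01, 0.0070 for Os10t0469900-01 and 0.32 for Os12t0573200-01, as that scaling shifts all ratios by 0.37. With DESeq2 size factors it was -0.10 for Os03t0113700-01 and -0.023 for Os03t0703200-01. Leaving out 1 library gave values of both signs for 8 transcripts, as follows. Os01t0720600-03 ranged from -1.60 to 0.53 (lowest without WT 1, highest without WT 2), Os01t0881500-01 from -1.20 to 0.028 (highest without WT 1), Os03t0146100-03 from -1.95 to 1.12 (highest without WT 2, and 0.050 without Ox_3), and Os04t0614100-00 from -0.057 to 1.17 (-0.057 without WT 2 and -0.053 without Ox_3). Os06t0194900-03 ranged from -1.08 to 0.18, Os06t0661800-01 from -1.36 to 0.048 (both highest without WT 1), Os07t0290200-01 from -0.13 to 0.10 (0.10 without Ox_3, 0.048 without WT 1), and Os10t0444700-01 from -2.36 (without Ox_5) to 1.45 (without Ox_3). The cause of the changes on leaving out a library was not tested. With 2 libraries a group, changes of low transcripts may go uncalled.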
